A study of Mus musculus with 15 samples.

Results

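The genes described here are the 8 fibroblast-type collagen genes *Col1a1*, *Col1a2*, *Col3a1*, *Col5a1*, *Col5a2*, *Col5a3*, *Col12a1* and *Col14a1*, out of 24134 gene IDs in each count table. They were chosen by name, as transcripts that mark the loss of the chondrocyte phenotype in culture, with earlier results of these data known. All 8 had counts high enough to be tested in both tables. The RNA sequencing comes from primary articular chondrocytes of ICR mice at passage 0, isolated from the joint cartilage of animals in their first week of life and maintained in medium with serum. The siRNA set holds 3 libraries with control siRNA (siCtrl) and 3 with siRNAs against both tankyrase genes, *Tnks* and *Tnks2* (siTnks/2). The drug set holds 3 libraries each of cells given DMSO, 10 μM XAV939 or 10 μM IWR-1 for 108 h. XAV939 and IWR-1 are small molecules that block tankyrase, an enzyme that attaches poly(ADP-ribose) chains to its substrates. XAV939 sits in the nicotinamide pocket of the catalytic domain and IWR-1 in the neighbouring adenosine pocket. The labels give no time for the transfection.

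Cartilage matrix is built on fibrils of types II, IX and XI collagen. Skin, tendon, bone and scar are built on type I collagen, a trimer of a pair of α1 chains (*Col1a1*) and 1 α2 chain (*Col1a2*), together with type III (*Col3a1*) and type V (*Col5a1*, *Col5a2*, *Col5a3*), the latter of which starts fibrils and sets their width. Types XII (*Col12a1*) and XIV (*Col14a1*) are fibril-associated collagens with interrupted triple helices, which lie on the surface of fibrils and link them to the surrounding matrix. Chondrocytes that flatten and divide on plastic are known to lose type II collagen and gain types I and III, a change called dedifferentiation.

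The coding sequences show the difference between these classes. A collagen helix repeats the triplet glycine-X-Y, so the codon GGN returns at every 3 codons. In the 6 genes of types I, III and V the longest unbroken run of such triplets, read from the mm10 annotation, was between 337 and 344 triplets, against 32 in both *Col12a1* and *Col14a1*. Glycine codons made up 23.2% to 28.3% of the codons in the fibril-forming genes, 9.17% in *Col12a1* and 10.8% in *Col14a1*. The first 72 coding bases of the longest run are shown 5′ to 3′ for the chain of type I collagen that changed most, for type III, and for the 2 fibril-associated genes, whose levels moved apart, with the glycine codons in capitals.
Col1a1: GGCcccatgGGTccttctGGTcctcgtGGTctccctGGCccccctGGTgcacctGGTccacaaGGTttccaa
Col3a1: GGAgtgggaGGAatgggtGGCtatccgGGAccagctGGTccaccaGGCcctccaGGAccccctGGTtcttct
Col12a1: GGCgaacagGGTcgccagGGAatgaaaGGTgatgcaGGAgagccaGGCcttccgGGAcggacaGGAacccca
Col14a1: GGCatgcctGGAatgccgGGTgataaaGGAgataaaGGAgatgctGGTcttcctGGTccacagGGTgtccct
The stretches start at codon 168 of *Col1a1*, 164 of *Col3a1*, 2805 of *Col12a1* and 1517 of *Col14a1*.

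The libraries held between 26857070 and 36615194 counts on genes. *Tnks* lay between 12.7 and 24.0 CPM (counts scaled by library size) in the siTnks/2 libraries against 58.4 to 70.1 with siCtrl, and *Tnks2* between 44.9 and 61.2 against 115 to 120, so the knockdown was seen in every library. In the labelled cell type, all 11 chondrocyte markers were detected in every group. Their summed level was 74396 to 101226 CPM with siCtrl, 107592 to 181211 with siTnks/2, 25609 to 34543 with DMSO, 35166 to 53623 with XAV939 and 81653 to 104606 with IWR-1. *Col2a1* made up most of it, at 58071 to 81498 CPM with siCtrl and 20881 to 28917 with DMSO. At an adjusted p under 0.05 (edgeR), 4 of the 11 were higher with siTnks/2, 3 with XAV939 and 10 with IWR-1, and 0 were lower. Of all genes 10.4%, 7.57% and 16.2% were higher. With XAV939 the means of *Ucma* (222 to 179 CPM) and *Prg4* (714 to 667) were below DMSO. With IWR-1 the mean of *Prg4* was also below DMSO, at 508 CPM. The 7 markers of fibroblasts and synovium summed to 164 to 204 CPM with siCtrl, 113 to 136 with siTnks/2, 386 to 529 with DMSO, 189 to 315 with XAV939 and 109 to 202 with IWR-1. Of these 7, 3 were lower and 0 higher with XAV939, 3 lower and 1 higher with IWR-1, and none of the 6 tested was called with siTnks/2. The shares of all genes that were lower were 9.85% with XAV939, 20.2% with IWR-1 and 7.61% with siTnks/2. Tendon markers (3 genes) summed to 11.6 to 31.7 CPM, osteoblast markers (6) to 67.2 to 262, mural cell markers (3) to 106 to 183, leukocyte markers (6) to 8.33 to 44.4 and adipocyte markers (3) to 4.07 to 49.7, over all libraries. Osteoblast markers went up where called, 1 of 6 tested with siTnks/2, 2 of 5 with XAV939 and 3 of 5 with IWR-1, and 0 were lower. No tendon marker was higher, and 1 of 3 was lower with each compound and 0 with siTnks/2. Among mural cell markers 1 of 3 was lower and 0 higher in each comparison. Endothelial markers (4) summed to 0.233 to 6.52 CPM, skeletal muscle markers (4) to 0.243 to 6.91 and erythroid markers (3) to at most 0.0356, with *Hbb-bs* and *Hba-a1* at 0 in every library. The endothelial maximum was siTnks/2 replicate 2, where *Pecam1* was at 3.17 and *Cdh5* at 2.28 CPM, against at most 0.259 and 0.111 elsewhere. The same library had the lowest level of 7 of the 8 collagens in its group. Knockdown values of the members and of the ratios are given with and without it where it moved them by over 1.5 times. Knockdown values and counts of the other gene lists are given only with this library included, and how far they depend on it is not shown. The part of these other cells in the collagen levels was not tested, and in bulk RNA fewer cells of a type and less RNA per cell cannot be told apart.

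At an adjusted p under 0.05, 5 of the 8 fibroblast-type collagens were lower with XAV939 and 5 of 8 with IWR-1. In the same comparisons 9.85% and 20.2% of all tested genes were lower. None was higher with either compound (7.57% and 16.2% of all genes), where an unadjusted p under 0.05 would name 0 with XAV939 and 1 with IWR-1 (*Col14a1*), and DESeq2 called 0 in both. *Col1a1*, *Col3a1*, *Col5a2* and *Col12a1* were lower with each compound, *Col5a1* with XAV939 and *Col5a3* with IWR-1. The median log2 fold change of the 8 genes was -0.83 with XAV939 and -1.05 with IWR-1, beside 0.02 and 0.01 over all genes tested. In either direction 17.4% of all genes were called with XAV939 and 36.4% with IWR-1. Without TMM scaling the split over all genes with XAV939 turned from 1050 higher and 1366 lower to 1464 and 1042. With IWR-1 the split went from 2250 higher and 2799 lower to 2496 and 2510. In that setting 5 members were called lower with XAV939 and 4 with IWR-1. Both comparisons use the same 3 DMSO libraries, and the share of all genes lower with both compounds was not computed.

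With tankyrase knockdown 1 of 8 was higher, *Col14a1* (10.4% of all genes were higher), and 0 of 8 were lower (7.61% of all genes, and 18% in either direction) by edgeR's quasi-likelihood test. An unadjusted p under 0.05 would add 1 lower gene, *Col5a2*. DESeq2 called 1 lower, as it did 1467 of all 13672 genes. The median log2 fold change was -0.34, beside -0.00 over all genes. Without TMM scaling the split over all genes turned from 1419 higher and 1040 lower to 1012 and 1446, with 1 member higher and 0 lower. Without siTnks/2 replicate 2, *Col5a3* was also higher (0.66, adjusted p = 0.0337) and *Col5a2* was lower (-0.67, adjusted p = 0.00865). The all-gene shares with knockdown changed when single libraries were left out. They were 2.99% higher and 1.41% lower without siCtrl replicate 1, and up to 4.44% and 2.28% without siCtrl replicate 2 or 3 or siTnks/2 replicate 1. Without siTnks/2 replicate 2 they were 11.3% and 9.47%, and without siTnks/2 replicate 3 9.38% and 6.76%. A fit without a library also has less data, so a fall in calls cannot be laid to that library alone. With XAV939 the all-gene shares were 3.41% higher and 6.04% lower without DMSO replicate 1. Libraries with the same replicate number deviated together, and with that number as a block the knockdown calls became 3 lower (*Col3a1*, *Col5a2*, *Col12a1*; background 16.5%) and 2 higher (*Col14a1*, *Col5a3*; background 18.1%). The block gave 7 lower and 1 higher with XAV939 (background 17.4% and 16%), and 6 lower and 1 higher with IWR-1 (background 25.3% and 22.2%). No member passed the study's limits of a fold above 3 and an adjusted p under 1e-05. Across all genes 0 passed them in the knockdown (0%), 1 under XAV939 (0.00721%), 145 under IWR-1 (1.05%) and 0 between the compounds (0%).

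**Figure D1:**
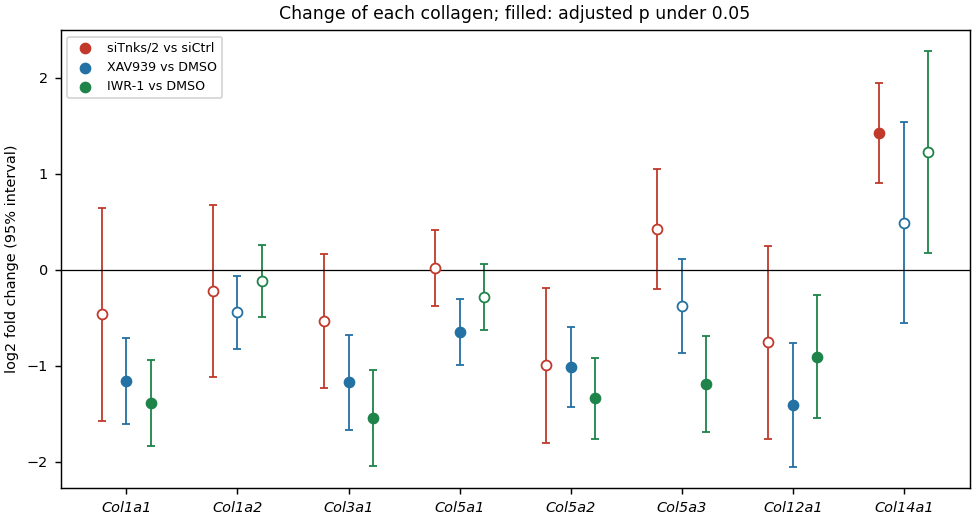
Log2 fold change of each collagen gene (vertical axis) with its 95% interval from edgeR, for siTnks/2 against siCtrl (red), XAV939 against DMSO (blue) and IWR-1 against DMSO (green). Filled points have an adjusted p under 0.05: 1 above zero with knockdown, 5 below zero with each compound.

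The members made up a sizeable part of each library. Together they took 1.86% ± 0.34 (SD, n = 3) of all counts with DMSO, 1.0% ± 0.18 with XAV939 and 0.97% ± 0.22 with IWR-1. They took 1.30% ± 0.30 with siCtrl and 0.88% ± 0.41 with siTnks/2. The DMSO libraries (1.55% to 2.23%) lay above all 6 inhibitor libraries (0.813% to 1.23%), while the siRNA groups overlapped because siTnks/2 replicates 1 and 3, at 1.04% and 1.20%, lay above siCtrl replicate 2, at 0.959%.

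Levels between genes are compared as RPKM, CPM per kilobase of exon, with each table scaled on its own. In DMSO, *Col1a1* was the most abundant at a mean of 1003 RPKM and did not overlap the next gene. *Col3a1* (656), *Col1a2* (654) and *Col5a2* (537) followed and overlapped one another in this order. *Col5a1* (127) and *Col12a1* (82.4) overlapped each other, and *Col5a3* (20.5) and *Col14a1* (1.61) each stood alone. In the other 4 groups the order changed at the top, with *Col1a2* having the highest mean, but its libraries overlapped those of *Col1a1* in all 4. *Col5a3* and *Col14a1* were the lowest in every group, and in siCtrl, at 1.98 and 1.92 RPKM, they overlapped. *Col5a3* lay between 1.62 and 3.53 RPKM in the siRNA set and between 7.28 and 24.4 in the drug set. Its raw counts, before any scaling, were 269 to 662 and 1388 to 4741 per library. The gap between the sets was not tested.

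**Figure D2:**
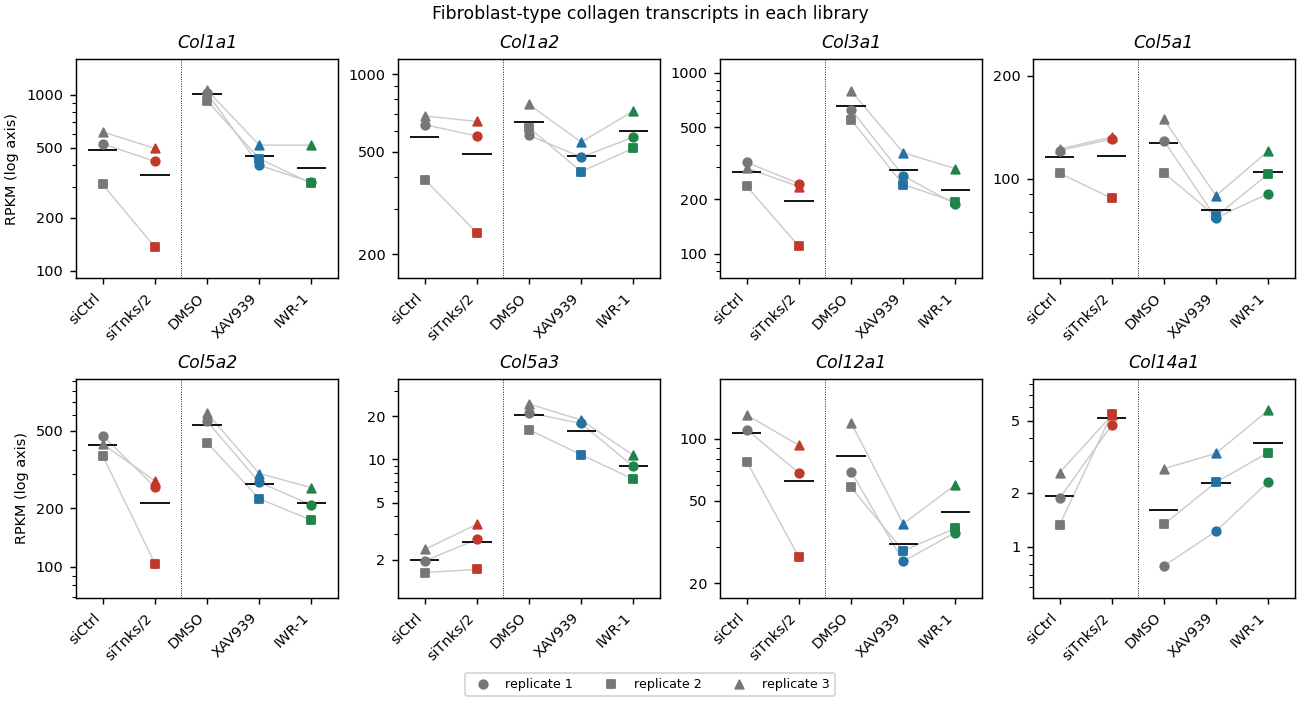
Level of each collagen in RPKM (log axis) in the 15 libraries, by group, with circles, squares and triangles for replicates 1, 2 and 3, grey lines joining libraries of the same number and black bars for group means. The inhibitor points lie below DMSO for Col1a1, Col3a1 and Col5a2, and the siTnks/2 points lie above siCtrl for Col14a1 alone.

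*Col1a1* (chr11:94936224-94953042, mm10) encodes the α1 chain of type I collagen. Its level was 1022, 926 and 1062 RPKM in the DMSO libraries, 397, 433 and 517 with XAV939 and 318, 313 and 516 with IWR-1. Every inhibitor library lay below every DMSO library. On the log2 scale, where each change is given ± its SE, *Col1a1* moved by -1.16 ± 0.20 (adjusted p = 0.00323) with XAV939, a 2.24-fold fall, and -1.39 ± 0.20 (adjusted p = 0.000362) with IWR-1, a 2.62-fold fall. In the siRNA set the level was 526, 309 and 614 RPKM with siCtrl and 417, 136 and 495 with siTnks/2. The groups overlapped, each siTnks/2 library lay below the siCtrl library of its own number, and the drop in replicate 2 was the steepest. Its knockdown value was -0.47 ± 0.47 (adjusted p = 0.516), with a 95% interval of -1.58 to 0.65, and the adjusted p was 0.0517 with the block. Leaving out single libraries moved it from -0.80 (without siTnks/2 replicate 3) to -0.08 (without siTnks/2 replicate 2).

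*Col1a2* (chr6:4505618-4541543) encodes the partner chain of type I collagen. It measured 579, 620.4 and 763 RPKM with DMSO, 476, 419 and 545 with XAV939 and 569.7, 516 and 719 with IWR-1. The XAV939 libraries all lay below DMSO and the IWR-1 libraries overlapped it. Its log2 fold change with XAV939 was -0.45 ± 0.17 (adjusted p = 0.098), where the block gave an adjusted p of 0.00656. With IWR-1 it was -0.12 ± 0.17 (adjusted p = 0.624), and its 95% interval of -0.50 to 0.26 leaves out a fall as large as that of *Col1a1*. In the siRNA set *Col1a2* stood at 637, 390.2 and 688 RPKM with siCtrl and 575, 243 and 656 with siTnks/2. These groups overlapped, and the knockdown value was -0.22 ± 0.38 (adjusted p = 0.716), or 0.11 without siTnks/2 replicate 2.

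The 2 chains of type I collagen were also compared within each library. The ratio of *Col1a1* to *Col1a2*, per length and independent of library scaling, was 1.76, 1.49 and 1.39 in the DMSO libraries. It was 0.832, 1.03 and 0.947 with XAV939 and 0.557, 0.607 and 0.718 with IWR-1. The 3 groups did not overlap. The log2 ratio fell by 0.72 with XAV939 and by 1.30 with IWR-1, and IWR-1 lay 0.58 below XAV939. In the siRNA set the ratio was 0.825, 0.791 and 0.892 with siCtrl and 0.725, 0.560 and 0.755 with siTnks/2, again without overlap, a log2 difference of -0.31, which was -0.17 without siTnks/2 replicate 2. Each of these 4 exact two-sided permutation tests gave p = 0.1, the smallest that 3 libraries against 3 allow, and 0.114 after adjustment over 8 ratio tests. Every same-number pair moved in the same direction, with an exact sign-flip p of 0.25, the smallest for 3 pairs.

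**Figure D3:**
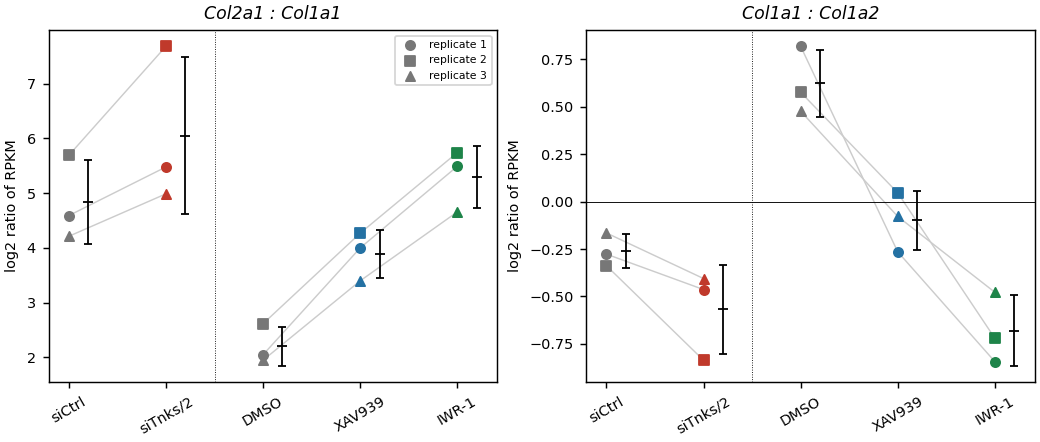
Log2 ratios of RPKM in each library for Col2a1 to Col1a1 (left) and Col1a1 to Col1a2 (right), with marker shapes for replicate numbers, grey lines joining same-number libraries and black bars for mean ± SD. The right panel falls from between 0.48 and 0.82 with DMSO to between -0.84 and -0.48 with IWR-1.

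Type III collagen, the product of *Col3a1* (chr1:45311538-45349706), forms thin fibrils together with type I in loose connective tissue. Its transcript measured 626, 549 and 793 RPKM with DMSO, 269, 241 and 361 with XAV939 and 187, 193 and 295 with IWR-1. Neither inhibitor group overlapped DMSO. *Col3a1* changed by -1.17 ± 0.22 (adjusted p = 0.00516) under XAV939 and -1.54 ± 0.23 (adjusted p = 0.000363) under IWR-1 on the log2 scale, or 2.26-fold and 2.91-fold lower, and the IWR-1 value was the largest fall among the 8 genes. The siRNA libraries held 319, 235 and 296 RPKM with siCtrl and 244, 109.7 and 235 with siTnks/2. The groups overlapped through siCtrl replicate 2 and siTnks/2 replicate 1. Knockdown gave -0.53 ± 0.30 (adjusted p = 0.243), and with the block it was -0.61 with an adjusted p of 0.0341. It lay between -0.72 without siTnks/2 replicate 1 and -0.25 without siTnks/2 replicate 2.

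*Col5a1* (chr2:27886381-28039510) encodes the α1 chain found in most type V collagen. Its level was 129, 104 and 149 RPKM with DMSO, 76.7, 77.5 and 89.1 with XAV939 and 90.3, 103 and 120.2 with IWR-1. XAV939 lay below DMSO in every library, and IWR-1 overlapped DMSO and lay above XAV939 in every library. XAV939 gave a log2 fold change of -0.65 ± 0.16 (adjusted p = 0.017) and IWR-1 one of -0.28 ± 0.16 (adjusted p = 0.185), the latter with an adjusted p of 0.0497 under the block. With siCtrl it was 121, 104 and 122 RPKM and with siTnks/2 130.4, 87.6 and 132, where 2 siTnks/2 libraries were above all siCtrl libraries and 1 was below. The knockdown log2 fold change was 0.02 ± 0.17 (adjusted p = 0.958), with a 95% interval of -0.38 to 0.41, and was 0.18 without siTnks/2 replicate 2.

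*Col5a2* (chr1:45374331-45503282), the α2 chain of type V, lies beside *Col3a1* on chromosome 1. It measured 559.6, 435 and 618 RPKM with DMSO, 272, 224 and 301 with XAV939 and 208, 173 and 255 with IWR-1. All inhibitor libraries were below all DMSO libraries. *Col5a2* changed by -1.02 ± 0.19 (adjusted p = 0.00446) under XAV939 on the log2 scale, a 2.02-fold fall, and by -1.34 ± 0.19 (adjusted p = 0.00029) under IWR-1, a 2.53-fold fall. The siRNA libraries held 472, 371 and 427 RPKM with siCtrl and 257, 104 and 276 with siTnks/2. These groups did not overlap either. *Col5a2* was the single member with every knockdown library below every control library (22.2% of all genes had this). Its knockdown log2 fold change was -0.997 ± 0.34 (adjusted p = 0.0852), which missed the threshold, and the adjusted p was 0.0192 with the block and 0.00733 with DESeq2.

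*Col5a3* (chr9:20770050-20815117) encodes another type V chain, found in fewer tissues. It measured 21.1, 16.1 and 24.4 RPKM with DMSO, 17.8, 10.8 and 18.8 with XAV939 and 8.94, 7.28 and 10.7 with IWR-1. XAV939 overlapped DMSO, and all IWR-1 libraries lay below both. XAV939 gave a log2 fold change of -0.38 ± 0.22 (adjusted p = 0.269), where the block gave an adjusted p of 0.00794, and IWR-1 gave -1.19 ± 0.23 (adjusted p = 0.00185). In the siRNA set it was 1.96, 1.62 and 2.35 RPKM with siCtrl and 2.76, 1.71 and 3.53 with siTnks/2. The groups overlapped and each siTnks/2 library was above its own-number control. Knockdown gave a log2 fold change of 0.43 ± 0.26 (adjusted p = 0.291), and the adjusted p was 0.0467 with the block. The knockdown values rest on few reads, down to 269 counts in a library.

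*Col12a1* (chr9:79598987-79721141) encodes type XII collagen, which coats type I fibrils in tendon and fascia. It measured 69.4, 58.2 and 119.7 RPKM with DMSO, 25.5, 28.7 and 38.7 with XAV939 and 35.2, 36.9 and 60.0 with IWR-1. XAV939 lay below DMSO throughout, and IWR-1 replicate 3 overlapped DMSO. Its log2 fold change under XAV939 was -1.41 ± 0.29 (adjusted p = 0.00802), the largest fall of the 8 in that comparison, and under IWR-1 it was -0.91 ± 0.29 (adjusted p = 0.0308). Across 17 alternatives the IWR-1 call was kept in 13, with log2 fold changes between -1.21 and -0.54. With siCtrl it was 110.5, 77.5 and 130.3 RPKM and with siTnks/2 68.5, 26.7 and 93.1, overlapping, with the lowest value in siTnks/2 replicate 2. The knockdown log2 fold change was -0.76 ± 0.43 (adjusted p = 0.249), and the adjusted p was 0.023 with the block. Without siTnks/2 replicate 3 the value was -1.16, and without siTnks/2 replicate 2 it was -0.39.

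*Col14a1* (chr15:55307644-55520803), the gene of type XIV collagen, was the single member with a positive log2 fold change in all 3 comparisons with a control. It measured 1.86, 1.32 and 2.58 RPKM with siCtrl and 4.74, 5.46 and 5.36 with siTnks/2. Every knockdown library lay above every control library, and the siTnks/2 values were close together (21.6% of all genes were higher without overlap). On the log2 scale the change was 1.42 ± 0.22 (adjusted p = 0.0102), a 2.68-fold rise, called in all 13 alternatives with a highest adjusted p of 0.04997. In the drug set it was 0.784, 1.33 and 2.71 RPKM with DMSO, 1.22, 2.28 and 3.31 with XAV939 and 2.29, 3.33 and 5.72 with IWR-1. The groups overlapped, because replicate 3 was high and replicate 1 low in all 3, and within each number the order was DMSO, XAV939, IWR-1 from low to high. XAV939 gave 0.49 ± 0.48 (adjusted p = 0.507) and IWR-1 1.23 ± 0.48 (adjusted p = 0.0661) on the log2 scale. With the replicate number as a block both were called, at 0.55 (adjusted p = 0.00558) and 1.29 (adjusted p = 4.22e-06). It is a low transcript, with 166 to 1274 counts in a library.

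Counting genes whose groups did not overlap at all, 6 of 8 were lower with XAV939 (16.8% of all genes), the exceptions being *Col5a3* and *Col14a1*. With IWR-1 4 of 8 were lower without overlap, *Col1a1*, *Col3a1*, *Col5a2* and *Col5a3* (26.4% of all genes). Within pairs of the same number, 7 of 8 were lower in all 3 pairs with each compound, and *Col14a1* was higher in all 3. Of all genes, 27.7% were lower and 29.3% higher in all 3 pairs with XAV939, and 34.6% lower and 35.2% higher with IWR-1. With knockdown 5 were lower in all 3 pairs (34.9% of all genes), *Col5a3* and *Col14a1* were higher in all 3 (34% of all genes), and *Col5a1* was mixed.

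The members also varied together between replicates of a group. Replicate 3 had the highest level of all 8 genes in DMSO, XAV939 and IWR-1 alike. Replicate 2 had the lowest level of all 8 in siCtrl and of 7 in siTnks/2, where *Col14a1* was at its highest. After group means were removed, Pearson's r over the 15 libraries lay between 0.78 and 0.96 for the 21 pairs without *Col14a1* and between 0.18 and 0.55 for the 7 pairs with it. With only table means removed, the ranges were 0.43 to 0.95 and -0.57 to 0.07. *Col1a1* and *Col1a2* had r = 0.96 in the first case and 0.79 in the second. These values are descriptions, since all genes of a library share its RNA, depth and replicate number.

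XAV939 and IWR-1 were set at 1 dose and time, so this pair of compounds can be compared directly. By edgeR, 1 of 8 members was lower with IWR-1 than with XAV939, *Col5a3* (10.2% of all genes were lower, and 17.6% were called in either direction), and 0 were higher (7.37% of all genes; 1, *Col5a1*, at an unadjusted p under 0.05; 0 with DESeq2). The *Col5a3* difference was -0.82 ± 0.22 (adjusted p = 0.0297) on the log2 scale, a 1.76-fold lower level, with an interval of -1.31 to -0.32 and no overlap (19.4% of all genes were lower without overlap). The call was lost when XAV939 replicate 1 or 3 or IWR-1 replicate 1 or 2 was left out. *Col5a1* had no overlap the other way (18.2% of all genes), at 0.37 ± 0.16 (adjusted p = 0.137). For *Col1a1* the difference was -0.23 ± 0.20 (adjusted p = 0.475) with an interval of -0.67 to 0.21, and for *Col3a1* -0.37 ± 0.22 (adjusted p = 0.291) with an interval of -0.86 to 0.12. Intervals for *Col1a2* (-0.05 to 0.70), *Col5a2* (-0.74 to 0.09), *Col12a1* (-0.13 to 1.14) and *Col14a1* (-0.30 to 1.77) also held zero in this fit.

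The block, which removes the shared shift of a replicate number, gave more differences between the compounds. *Col1a2* (0.32, adjusted p = 0.0334), *Col5a1* (0.36, 0.0248), *Col12a1* (0.48, 0.00781) and *Col14a1* (0.74, 0.000651) were higher with IWR-1. *Col3a1* (-0.38, 0.0146), *Col5a2* (-0.33, 0.0206) and *Col5a3* (-0.79, 9.26e-05) were lower. With the block 14.1% of all genes were higher and 16.6% lower. *Col1a1* was not called (adjusted p = 0.163).

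The effect of knockdown was set against that of each compound as a difference of differences, fitted once to the 15 libraries. Knockdown and compounds belong to different sets, so a difference due to the treatment and one due to the set cannot be told apart. Against XAV939, 0 of 8 members differed (13.5% of all genes did, 8.07% higher and 5.4% lower), with 2 at an unadjusted p under 0.05, *Col5a1* and *Col5a3*. DESeq2 called 1 higher, as it did 1432 of all 14271 genes. *Col5a1*, at 0.02 with knockdown and -0.65 with XAV939, differed by 0.68 ± 0.24 (adjusted p = 0.0758). With the block *Col3a1*, *Col5a1*, *Col5a3* and *Col14a1* were called, all less negative or more positive with knockdown, at adjusted p of 0.03, 0.00741, 0.00169 and 0.00982, where the block called 15.4% of all genes higher and 12.7% lower. Against IWR-1, 1 of 8 differed, *Col5a3* (of all genes 24.4% differed, 13.9% with a higher effect of knockdown and 10.5% with a lower). Its effects of 0.43 with knockdown and -1.19 with IWR-1 differed by 1.63 ± 0.37 (adjusted p = 0.00495), with an interval of 0.85 to 2.42, and all 22 alternatives kept the call. The block added *Col1a1* (adjusted p = 0.0131) and *Col3a1* (0.00129), both less negative with knockdown, and gave 19.3% of all genes higher and 17% lower. For *Col5a2* the difference was 0.35 ± 0.39 (adjusted p = 0.556) against IWR-1 and 0.03 ± 0.39 (adjusted p = 0.968) against XAV939, with intervals of -0.48 to 1.19 and -0.80 to 0.87.

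The ratio of *Col2a1*, the α1 chain of type II collagen, to *Col1a1* is the common index of chondrocyte differentiation. It was 4.13, 6.12 and 3.85 in the DMSO libraries, 16.0, 19.3 and 10.5 with XAV939 and 44.9, 53.5 and 25.2 with IWR-1. The 3 groups did not overlap. On average the ratio was 3.22-fold higher with XAV939, 8.53-fold higher with IWR-1 and 2.65-fold higher with IWR-1 than with XAV939, each with an exact permutation p of 0.1 (0.114 adjusted over the 8 ratio tests). In the siRNA set it was 24.1, 51.7 and 18.5 with siCtrl and 44.6, 206 and 31.7 with siTnks/2, a 2.33-fold difference with an exact permutation p of 0.3. That is 1.22 on the log2 scale, and it was 0.40 without siTnks/2 replicate 2 and 1.75 without siTnks/2 replicate 3. The ratio was higher in each same-number pair. With XAV939 the log2 ratio rose by 1.69, of which *Col1a1* changed by -1.16 and *Col2a1* by 0.52 (SE 0.21, adjusted p = 0.118). With IWR-1 it rose by 3.09, with *Col1a1* at -1.39 and *Col2a1* at 1.66 (SE 0.22, adjusted p = 0.000194).

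The collagens of cartilage were counted beside them. Of 8 (*Col2a1*, *Col9a1*, *Col9a2*, *Col9a3*, *Col11a1*, *Col11a2*, *Col27a1* and *Col10a1*), 5 were higher in the knockdown, 5 under XAV939 and 8 under IWR-1, and 0 were lower in each, against the shares of all genes given above (10.4%, 7.57% and 16.2% higher). Their median log2 fold changes were 0.82, 0.85 and 2.08. *Col10a1*, the collagen of hypertrophic cartilage, rose by 1.44, 1.37 and 3.07 in these comparisons, and *Col27a1*, a fibrillar collagen of cartilage, by 1.02, 1.52 and 3.09. Of the remaining collagen genes, 7 of 25 tested were higher and 1 lower with knockdown, 2 of 21 higher and 0 lower with XAV939, and 6 of 21 higher and 1 lower with IWR-1.

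**Figure D4:**
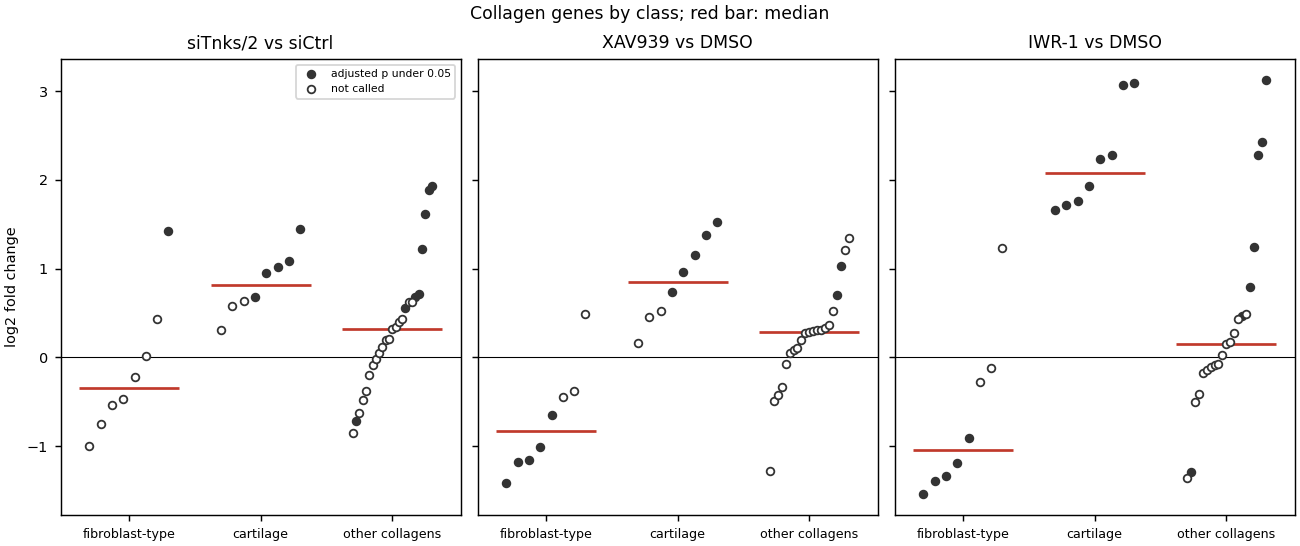
Log2 fold changes of the 8 fibroblast-type collagens, the 8 cartilage collagens and the other collagen genes tested, in the 3 comparisons, with filled points for an adjusted p under 0.05 and a red bar for the median. The medians of the fibroblast-type and cartilage classes lie on opposite sides of zero in each comparison, at -1.05 and 2.08 with IWR-1.

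Genes with a part in making collagen, enzymes and chaperones among them, were counted next. Of 22, 8 were lower and 0 higher with XAV939, 8 lower and 4 higher with IWR-1, and 0 lower and 2 higher with knockdown. Over all genes 9.85% were lower and 7.57% higher with XAV939, 20.2% and 16.2% with IWR-1, and 7.61% and 10.4% with knockdown, shares that also stand behind the lists that follow. The list's knockdown count was near that background. *P4ha2*, a prolyl hydroxylase, fell by 0.74 with XAV939 and by 1.12 with IWR-1, and *Plod1*, a lysyl hydroxylase, fell by 0.71 and 1.11 (adjusted p between 5.49e-05 and 0.00298 for the 4 values). *Serpinh1*, the collagen chaperone HSP47, rose by 0.83 (SE 0.15, adjusted p = 0.00154) with IWR-1. With knockdown *Mia3*, which helps procollagen leave the endoplasmic reticulum, rose by 0.35 (SE 0.06, adjusted p = 0.0153).

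Of 17 genes that process and crosslink collagen, 5 were lower and 3 higher with XAV939, and 8 lower and 4 higher with IWR-1. With knockdown 4 of 16 tested were higher and 0 lower. *Lox*, the lysyl oxidase that crosslinks type I fibrils, fell by 1.34 with XAV939 (SE 0.20, adjusted p = 0.00146) and by 2.22 with IWR-1 (SE 0.21, adjusted p = 2.03e-05). *Loxl3* rose by 1.21 and 1.56, and *Loxl4* by 0.66 and 2.58. *Pcolce2*, an enhancer of procollagen C-proteinase, rose by 0.96 in the knockdown and by 1.34 and 2.77 under XAV939 and IWR-1.

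Other markers of fibroblasts did not all move with the collagens. Of 15, 4 were lower and 2 higher with knockdown, 4 lower and 3 higher with XAV939, and 5 lower and 3 higher with IWR-1. *Pdgfra*, a receptor of mesenchymal cells, fell by 1.20 with XAV939 and by 1.77 with IWR-1, and *Fbn1*, the gene of fibrillin, by 0.72 and 0.78. *Postn*, a matricellular protein of connective tissue, rose by 2.05 in the knockdown and by 1.21 and 1.32 under XAV939 and IWR-1, and *Tgfbi* rose by 0.65 and 1.70 with the compounds. *Acta2*, smooth muscle actin, fell by 1.40 with knockdown and rose by 1.72 with IWR-1. *Fap*, which had the smallest p of this list with knockdown, rose by 1.17 there. It rose by 0.71 with XAV939 and fell by 0.64 with IWR-1.

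Among 17 genes of pathways and factors that regulate type I collagen, 6 were lower and 0 higher with XAV939, and 7 lower and 0 higher with IWR-1. With knockdown 2 were lower and 2 higher, near the shares of all genes (7.61% and 10.4%). *Scx*, a transcription factor of tendon, fell by 0.80 with XAV939 and by 1.39 with IWR-1, *Smad3*, a signal carrier of TGF-β, by 0.64 and 0.63, and the receptor *Tgfbr2* by 0.67 and 0.35. *Tgfb1* rose by 0.73 with knockdown (SE 0.12, adjusted p = 0.0118) and fell by 0.64 with IWR-1 (SE 0.08, adjusted p = 0.000189).

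The genes whose levels followed each member most closely were found over the 15 libraries, each table centred on its own mean. Nearest to *Col1a1* were *Timp2*, *Abi3bp* and *Masp1* (Pearson's r of 0.97 for each). Nearest to *Col3a1* was *Fstl1* (0.99), to *Col5a2* *Pxdn* (0.99), to *Col12a1* *Tead1* (0.97), to *Col5a3* *Ifnar1* (0.96), to *Col1a2* *Pknox2* (0.95) and to *Col5a1* *Cdon* (0.93). *Col14a1* was followed most closely by *Map1b*, *Fzd4* and *Rdx* (0.94 each). No gene was among the 3 nearest of more than 1 member.

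Promoters were read for the members that RefSeq's table for GRCm38.p6 lists, *Col1a2*, *Col3a1*, *Col5a1* and *Col5a3*, as 250 bases before to 50 after the start. The promoters of *Col1a1*, *Col5a2*, *Col12a1* and *Col14a1* were not analysed here. Matches to 6 motifs on both strands were sought. These were CCAAT (the box bound by NF-Y), GGGCGG (the GC box of *Sp1*), TATAAA (the TATA box), TGANTCA (an AP-1 site), GGAATG (a TEAD site) and ACAATGG (a SOX site). The promoters of *Col1a2* and *Col3a1* are shown because these genes stood near each other in level with DMSO and moved by different amounts with IWR-1. Both are on the plus strand, at chr6:4505368-4505667 and chr1:45311288-45311587, with matches on either strand in capitals.
Col1a2: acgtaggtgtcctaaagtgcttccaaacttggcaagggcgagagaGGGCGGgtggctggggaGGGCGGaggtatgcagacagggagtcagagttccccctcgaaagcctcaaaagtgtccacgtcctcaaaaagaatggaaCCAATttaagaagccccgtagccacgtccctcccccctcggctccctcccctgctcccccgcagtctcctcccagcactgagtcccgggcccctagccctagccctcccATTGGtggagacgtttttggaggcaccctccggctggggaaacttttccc
Col3a1: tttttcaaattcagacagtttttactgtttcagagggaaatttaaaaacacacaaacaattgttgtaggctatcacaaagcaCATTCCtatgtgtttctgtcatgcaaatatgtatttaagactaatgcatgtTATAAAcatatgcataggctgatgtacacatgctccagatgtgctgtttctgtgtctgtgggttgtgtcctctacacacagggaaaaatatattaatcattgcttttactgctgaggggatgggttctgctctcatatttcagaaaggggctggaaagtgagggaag
*Col1a2* held 2 CCAAT and 2 GGGCGG matches, while *Col3a1* held neither and had 1 TATAAA and 1 GGAATG match, the latter on the minus strand. *Col5a1* held 2 GGGCGG matches, and *Col5a3* held 1 CCAAT and 3 GGGCGG matches. Of all 32851 listed promoters, 37.4% held CCAAT, 35.7% GGGCGG, 13.6% TATAAA, 14.7% GGAATG, 7.81% TGANTCA and 3.66% ACAATGG. No member promoter held TGANTCA or ACAATGG, and a match is a description of these letters alone.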

How the data were processed

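RNA of 15 libraries was made from primary mouse articular chondrocytes with the TruSeq Stranded mRNA kit. The submitters' processing notes name Trimmomatic 0.32, TopHat2 2.0.13 and HTSeq 0.6.1p1 with mm10, and the annotation and strand setting are not given in the sources used here. The authors deposited raw read counts per Entrez gene ID, not normalized, in a siRNA and a drug table. Of 24134 IDs, 24051 matched a symbol and 83 did not. No member overlaps another gene of the tables.

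Counts were fitted with edgeR 4.0.16 in R 4.3.3 (filterByExpr, TMM, quasi-likelihood F test, prior count 2), 1 model per table. P-values were adjusted by Benjamini-Hochberg over all genes tested (13672 and 13873, and 14271 in the interaction model) and called under 0.05. Intervals are at 95%. The study describes 3 biological replicates per group, and the groups come from the labels. RPKM are TMM-scaled CPM per kilobase of the exon union. Permutation tests are exact and two-sided. Totals of 26857070 to 36615194 counts per library set the depth, and reads carry no molecular identifiers. The steps were tested on simulated data.

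Same-number libraries of a table, paired by the replicate numbers of the titles, were checked. After group means were removed, their correlations were 0.143 to 0.553 in 9 pairs of the drug table and 0.424 to 0.518 in 3 pairs of the siRNA table. Different numbers gave -0.489 to 0.318 and -0.409 to 0.0972.

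The members and gene lists were chosen with earlier results of these data known. Named were the 8 members, some genes of each list, and the nearest patterns. The list genes named were not always those with the smallest p. Among the genes that make collagen, *P3h2*, which rose by 1.53 with IWR-1, had a smaller p there than *Serpinh1*. Alternatives were other scalings (RLE, upper quartile, none), no filter or at least 10 counts in every library, DESeq2 1.42.0, the replicate block, 2-group fits, raw ratios without length scaling, and leaving out each library.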

Additional observations from a re-analysis of the deposited data

Results flagged for a closer look

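*Col5a3* stood out in a comparison within the drug set and in one between the sets. Its level was lower with IWR-1 than with XAV939, by -0.82 on the log2 scale (SE 0.22, adjusted p = 0.0297, edgeR), in 3 of 3 libraries. The effect of knockdown on *Col5a3* lay 1.63 above that of IWR-1 on the log2 scale (SE 0.37, adjusted p = 0.00495, interaction term in edgeR). The knockdown change alone was not called (0.43, adjusted p = 0.291, edgeR). The mean level was 1.98 RPKM in siCtrl and 20.5 in DMSO, and in this comparison treatment and set cannot be told apart. The 3 siTnks/2 libraries were each above their own-number control and the 3 IWR-1 libraries each below theirs.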

How the results depend on the processing

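With the replicate number as a block, members called rose to 2 higher and 3 lower with knockdown, 1 higher with XAV939 and 1 higher with IWR-1. For IWR-1 against XAV939 the block gave 4 higher and 3 lower, and for the effect of knockdown minus that of XAV939 and of IWR-1 it gave 4 and 3 higher. DESeq2 called 1 lower with knockdown, 1 higher for knockdown minus XAV939 and 2 higher for knockdown minus IWR-1. Of all genes it called 1467 of 13672 lower, 1432 of 14271 higher and 2206 of 14271 higher in these comparisons. Without a filter 1 member was higher with IWR-1, where 2153 of 18612 genes were. Leaving out single libraries gave 1 to 2 higher and 0 to 1 lower with knockdown (2 and 1 without siTnks/2 replicate 2) and 0 to 1 higher with IWR-1 (1 without DMSO replicate 3). It gave 0 to 1 lower for IWR-1 against XAV939 (0 without XAV939 replicate 1 or 3 or IWR-1 replicate 1 or 2), 0 to 1 higher for knockdown minus XAV939 (1 without siTnks/2 replicate 2 or DMSO replicate 2) and 1 to 3 higher for knockdown minus IWR-1 (3 without siTnks/2 replicate 2, 2 without IWR-1 replicate 3). Of all genes, 15.9% were higher with IWR-1 without DMSO replicate 3. For IWR-1 against XAV939, 5.81% to 8.25% were lower without XAV939 replicate 1 or 3 or IWR-1 replicate 1 or 2. For knockdown minus XAV939, 6.39% and 8.05% were higher without siTnks/2 replicate 2 and DMSO replicate 2. For knockdown minus IWR-1, 13.2% and 12.5% were higher without siTnks/2 replicate 2 and IWR-1 replicate 3. The cause of these changes was not tested.

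Values near zero changed sign. The *Col5a1* log2 change with knockdown was -0.064 without scaling, -0.0054 with the block and -0.083 to 0.18 without single libraries. The *Col1a2* change with knockdown ranged from -0.48 to 0.11, positive only without siTnks/2 replicate 2. For knockdown minus XAV939, *Col5a2* was -0.037 with upper-quartile factors, -0.10 without scaling, -0.086 with the block and -0.20 to 0.36 without single libraries, and *Col1a2* ranged from -0.025 to 0.56. For knockdown minus IWR-1, *Col12a1* was -0.0045 with the block and ranged from -0.24 to 0.53, *Col1a2* from -0.35 to 0.24 and *Col14a1* from -0.40 to 0.64. None of these was called. *Col1a1*, *Col3a1* and *Col5a2* were called lower with both compounds in all 17 alternatives of each, *Col5a3* with IWR-1 in 17, *Col12a1* with XAV939 in 17 and *Col5a1* with XAV939 in 14. The ratios kept their direction in every alternative. In the 4 comparisons within a table the median log2 change of all genes stayed between -0.09 and 0.07 over all settings, and without scaling it was -0.13 for both differences between effects. With 3 libraries per group, exact tests cannot go below p = 0.1. For the effect of knockdown minus that of XAV939, 1152 genes were higher and 770 lower with TMM, 907 and 1011 with upper-quartile factors and 708 and 1754 without scaling, and for knockdown minus IWR-1 1989 and 1494 with TMM against 1474 and 2317 without scaling.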
